A study of Mus musculus with 32 samples.

Results

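Nicotinamide riboside (NR), a form of vitamin B3 from which cells make NAD+, was compared with vehicle in the kidney cortex of female Alport mice. The comparison held 8 of the 32 libraries of the series, 4 from NR-treated and 4 from vehicle-treated mice, chosen by the sex, genotype and treatment that their labels gave. All 8 mice were female, 25 weeks old, of the strain C57BL/6J-Col4a3tm1Dec and Col4a3-/-, so that they lacked the alpha 3 chain of the type IV collagen of the glomerular basement membrane, and NR had been mixed into the diet from early adulthood on. Other mice of the same strain and age serve for reference, the female heterozygous controls (Col4a3+/-) on vehicle or NR and the male Alport mice on vehicle or NR, with 4 mice in each group. The deletion was carried in the germline, also by the controls on 1 allele, and each library came from 1 mouse. The study asked whether NR protects the diseased kidney and activates its metabolism.

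NAD+ carries electrons from the oxidation of fatty acids and other fuels to the respiratory chain, and it is consumed by sirtuins and poly(ADP-ribose) polymerases. The proximal tubule, which makes up much of the cortex, lives largely on fatty acid oxidation, whose genes are switched on by the fatty acid sensor PPAR-alpha together with its partner RXR. Glutathione S-transferases, quinone reductases and carbonyl reductases are held under NRF2, which responds to electrophiles and oxidants. The genes of cholesterol synthesis and uptake are held under the sterol-regulated transcription factor SREBP2.

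Library totals of the 8 mice ran from 19281368 to 25963664 counts, against 16621944 to 27778797 in all 32 mice. The 10 most abundant genes took 12.03% to 13.7% of the counts in vehicle-treated mice and 14.1% to 18.6% in NR-treated mice. Col4a3, the targeted gene, was at 57.7, 79.2, 59.7 and 60.1 CPM (counts scaled to the size of the library) in the vehicle-treated Alport mice and at 48.8, 50.8, 57.6 and 59.3 CPM in the NR-treated ones, with replicates in order 1 to 4. Each of these 8 values lay below the lowest of the 4 vehicle-treated female controls, which ranged from 139.5 to 163 CPM. Counts per gene cannot separate the deleted exons from the rest of the transcript, so the residual level checks the labels only by its direction. The proximal tubule transporter Slc34a1 (2411 to 3741 CPM over the vehicle-treated mice) and the thick ascending limb protein Umod (2927 to 5068 CPM) were abundant, as kidney tissue requires.

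After genes with few counts were removed, 15712 genes were tested for a difference between NR and vehicle with edgeR's quasi-likelihood test, with p-values adjusted by the method of Benjamini and Hochberg and a threshold of 0.05. NR changed 72 genes, or 0.458% of those tested. Of these, 60 rose (0.382%) and 12 fell (0.0764%). These shares are the background for the counts of risers and fallers in each gene list below. Genes of fatty acid handling, of NRF2-linked detoxification and of cholesterol homeostasis were among those that rose, and immunoglobulin, mucosal chemokine and transporter genes were among those that fell. At an unadjusted p under 0.05, 1420 genes were higher and 1170 lower. In 807 genes (5.14% of those tested) all 4 NR-treated mice lay above all 4 vehicle-treated mice, and in 636 genes (4.05%) they all lay below. The number of genes past the threshold depended on the fit. DESeq2 passed 728 of the 15712 genes, 443 higher and 285 lower, which is the background for its list counts. An edgeR fit on all 16 female mice passed 788. Both fits included all 72. Leaving out 1 mouse gave between 9 and 163 genes, with 9 to 14 when vehicle-treated replicate 1, 3 or 4 was absent and 24 in the absence of replicate 3 on NR. The count was 113 in the absence of replicate 4 on NR and 163 in that of replicate 1 on NR. All 72 kept their direction in each of these fits, and 9 passed in every fit that left out 1 mouse (Fabp1, Gsta1, Gm10639, Mgst1, Ugt1a10, Dbi, Eci1, Acsf2 and Lpcat3).

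**Figure D1:**
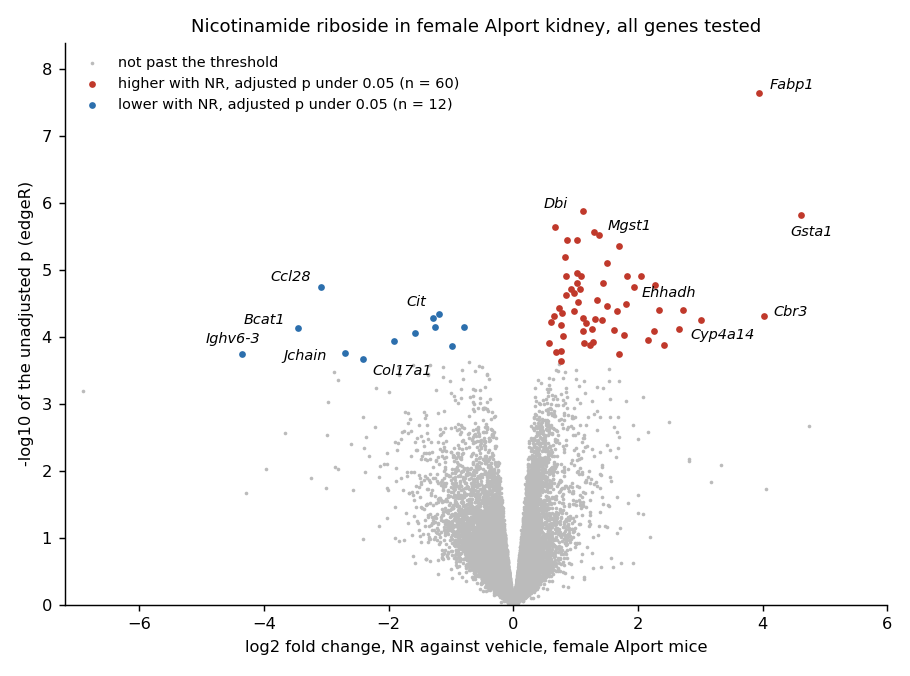
Log2 fold change with NR (horizontal axis) against the -log10 of the unadjusted p (vertical axis) for the 15712 genes tested in female Alport mice, with the 60 genes that rose in red and the 12 that fell in blue. The risers reached further from 0 in p than the fallers, with Fabp1 and Gsta1 at the upper right.

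Some of the genes of fatty acid handling rose with NR. Fabp1, the liver-type fatty acid binding protein that delivers ligands to PPAR-alpha, lies at chr6:71199879-71205034 (mm10). Its level was 2.28, 2.68, 2.26 and 3.79 CPM in the 4 vehicle-treated mice and 43, 31.1, 35.5 and 56.8 CPM in the 4 NR-treated mice. The lowest NR-treated mouse stood several times above the highest vehicle-treated mouse, and above all vehicle-treated female controls (2.89 ± 1.53 CPM, SD, n = 4). The log2 fold change was 3.94 ± 0.24 (SE, adjusted p = 0.000355), the smallest p of all genes, and Fabp1 passed the threshold in every fit that was run.

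Promoters of 4 risers are shown as examples, chosen after their matches to motifs of PPAR-alpha, NRF2 and SREBP2 were seen, Fabp1 and Ehhadh because each matched more than 1 motif and Mgst1 and Pir for the NRF2 motif alone. Other risers with a match are not shown. Each runs 5′ to 3′ on the gene's strand from 250 bases before to 50 bases after the RefSeq start of transcription (GRCm38.p6, the same assembly as mm10), with motif matches in capitals.
Fabp1, chr6:71199629-71199928, plus strand: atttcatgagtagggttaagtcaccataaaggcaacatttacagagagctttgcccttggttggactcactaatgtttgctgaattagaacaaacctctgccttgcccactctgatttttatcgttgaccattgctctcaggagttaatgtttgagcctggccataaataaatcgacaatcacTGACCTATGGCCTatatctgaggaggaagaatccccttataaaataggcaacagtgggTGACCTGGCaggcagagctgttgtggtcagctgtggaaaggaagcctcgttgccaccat
Ehhadh, chr16:21787785-21788084, minus strand: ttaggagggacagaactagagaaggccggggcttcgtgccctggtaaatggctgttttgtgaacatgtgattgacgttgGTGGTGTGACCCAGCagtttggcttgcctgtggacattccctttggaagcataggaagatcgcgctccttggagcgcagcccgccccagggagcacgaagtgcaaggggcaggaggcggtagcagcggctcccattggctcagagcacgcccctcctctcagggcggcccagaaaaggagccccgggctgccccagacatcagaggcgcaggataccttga
Mgst1, chr6:138140277-138140576, plus strand: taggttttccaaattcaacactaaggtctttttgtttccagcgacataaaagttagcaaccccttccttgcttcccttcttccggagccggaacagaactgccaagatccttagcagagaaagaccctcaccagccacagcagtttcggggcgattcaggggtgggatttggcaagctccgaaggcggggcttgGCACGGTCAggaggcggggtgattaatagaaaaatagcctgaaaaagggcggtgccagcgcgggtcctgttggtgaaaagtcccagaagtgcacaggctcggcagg
Pir, chrX:164269181-164269480, plus strand: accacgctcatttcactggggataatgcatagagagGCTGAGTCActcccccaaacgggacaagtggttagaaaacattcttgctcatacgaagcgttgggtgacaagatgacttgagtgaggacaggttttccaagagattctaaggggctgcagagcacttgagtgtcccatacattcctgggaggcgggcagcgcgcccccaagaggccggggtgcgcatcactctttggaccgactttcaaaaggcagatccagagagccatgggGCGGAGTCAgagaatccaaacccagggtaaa

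The longer capitals in Fabp1, starting 67 bases before the start of transcription, match on the minus strand a pair of AGGTCA sites with 1 base between them, the DR1 form that PPAR-alpha and RXR bind, with 1 mismatch. Its other match, and those of Mgst1 and Pir, are to TGACNNNGC, the core of the antioxidant response element bound by NRF2. In Ehhadh a match to this core overlaps a match to TCACNCCAC, a form of the sterol response element. Both strands were searched. A RefSeq promoter was found for 48 of the 60 risers, and 2 of these held the DR1 form with at most 2 mismatches (4.167%), against 4.403% of 27025 genes. The antioxidant core was in 9 of the 48 (18.75%), against 13.99% of all genes, and the sterol form in 1 (2.083%), against 1.436%. Of the 12 fallers, 10 had a promoter. Each of the motifs was found in 1 of these, but not all in the same gene (the antioxidant core in Jchain and the sterol form in Col17a1). A match in this window is a run of letters and not a shown binding site.

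Some microsomal and peroxisomal enzymes rose as well. Cyp4a14, which hydroxylates fatty acids at their omega end and is a classic PPAR-alpha target, was at 345, 485, 199 and 315 CPM in vehicle-treated mice and 1655, 1603, 2678 and 4885 CPM in NR-treated mice. Its change was 3.02 ± 0.43 on the log2 scale (SE, adjusted p = 0.0201). Its neighbour Cyp4a10 (both genes lie within chr4:115486200-115533649) went from 287, 391, 195 and 277 to 935, 938, 1193 and 1658 CPM, a log2 change of 2.05 (adjusted p = 0.0122). The groups did not overlap for either gene, and every vehicle-treated Alport mouse lay below the lowest vehicle-treated female control (542 CPM for Cyp4a14 and 401 CPM for Cyp4a10). Both genes are among 10 tested for omega-hydroxylation, of which 2 rose and 0 fell (6 rose and 1 fell with DESeq2, median 1.14). Of all genes tested, 0.382% rose with edgeR. None rose without vehicle-treated replicate 1 or 4, and 1 rose without vehicle-treated replicate 3 or NR-treated replicate 3. Ehhadh, the bifunctional enzyme of peroxisomal beta-oxidation (chr16:21761285-21787834), stood at 307, 396, 308 and 308 CPM on vehicle and 1150.3, 1151, 1321 and 3018 CPM on NR. NR-treated replicate 4 was far above the rest of its group, and every NR-treated mouse was more than 2-fold above any vehicle-treated mouse. The log2 change of Ehhadh was 2.34 ± 0.33 (SE, adjusted p = 0.019). Of 22 peroxisomal beta-oxidation genes tested, 3 rose, against 0.382% of all genes tested, and 0 fell. The third riser beside Ehhadh and the thiolase Acaa1b (1.66) was the dienoyl-CoA isomerase Ech1 (0.77). The median log2 change of the 22 was 0.56, against 0.00 over all genes tested, and with DESeq2 12 of them rose. The count of risers was 0 without NR-treated replicate 3 or vehicle-treated replicate 1, 3 or 4, and 5 without vehicle-treated replicate 2.

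Inside mitochondria, 4 of 23 beta-oxidation and carnitine shuttle genes rose (12 with DESeq2) and 0 fell, against 0.382% of all genes tested that rose with edgeR. All 23 had a positive log2 change (median 0.52). The 4 were the thiolase Acaa2 (1.13 on the log2 scale), Eci1 (1.02) and Decr1 (0.85), which prepare unsaturated fatty acids for oxidation, and Etfdh (0.77), which hands their electrons to ubiquinone. Without vehicle-treated replicate 1, 3 or 4 the count was 1, and without NR-treated replicate 3 it was 2. Cpt1a, the carnitine transferase at the entry to mitochondria, was at 351, 400.0, 324 and 387 CPM on vehicle and 406, 338, 446 and 719 CPM on NR (adjusted p = 0.379). Acadm, the medium-chain dehydrogenase, was at 285, 537, 298 and 317 and 494, 452, 488 and 467 CPM (adjusted p = 0.332). Both sets of values overlapped. In Acadm the single high value among the vehicle-treated mice, replicate 2, lay above all NR-treated mice, and without it Acadm passed (log2 change 0.68, adjusted p = 0.0212).

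Of 21 genes on the ketone body and fasting-response list 1 rose and 0 fell (8 rose with DESeq2, median 0.49), with 0 to 3 risers when 1 mouse was left out (0 without vehicle-treated replicate 1, 3 or 4, 2 with NR-treated replicate 1 or vehicle-treated replicate 2 absent, and 3 with NR-treated replicate 4 absent). Pdk4, which blocks glucose oxidation during fasting, was at 55.1, 44.3, 34.8 and 37.9 CPM on vehicle and 57.1, 41.6, 82.2 and 429 CPM on NR. NR-treated replicate 4 stood far above the vehicle range, replicates 1 and 3 were nearer to it and replicate 2 lay inside it, and Pdk4 did not pass (adjusted p = 0.257). Among 29 genes of fatty acid binding, thioesterases and synthetases, 5 rose, against 0.382% of all genes tested, and 0 fell, with a median of 0.29. The count of risers was 9 with DESeq2, and 2 without vehicle-treated replicate 1, 3 or 4. The 5 were Fabp1, the acyl-CoA binding protein Dbi (1.12), the thioesterases Acot1 (1.93) and Acot3 (1.02), which lie side by side on chromosome 12, and the synthetase Acsl3 (1.06). Acot1 was at 65.8, 70.2, 53.9 and 61.1 CPM on vehicle and 195, 166, 214 and 374 CPM on NR, so that every NR-treated mouse was at more than 2-fold the level of every vehicle-treated mouse.

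No change in the regulators of these genes passed. Of 17 genes for PPARs, RXRs and PGC-1 proteins, 0 passed in either direction under edgeR, DESeq2 or limma-voom, with 2 at an unadjusted p under 0.05 and a median log2 change of 0.13. Ppara itself was at 40.7, 61.3, 42.5 and 51 CPM on vehicle and 43.1, 37.9, 49.2 and 84.6 CPM on NR, and the groups overlapped over most of their range (log2 change 0.14 ± 0.25, adjusted p = 0.802). Its partner Rxra was at 98.9, 120.1, 100.1 and 109.9 and 114, 121, 137 and 150.4 CPM (adjusted p = 0.248), and the coactivator Ppargc1a at 54.3, 76.8, 48.3 and 56.2 and 58.9, 61.5, 79.2 and 85.5 CPM (adjusted p = 0.427). For neither did the groups separate.

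The second large group of risers comprised targets of NRF2. Of 31 tested, 10 rose and 0 fell (21 and 1 with DESeq2), with a median log2 change of 1.02. Over all 15712 genes tested, 0.382% rose with edgeR, and 443 rose and 285 fell with DESeq2. The count of risers dropped to 1, 2 and 1 without vehicle-treated replicate 1, 3 and 4 and to 3 in the absence of replicate 3 on NR, and was 16 in that of replicate 4 on NR. Gsta1 (chr9:78230669-78242683), a glutathione S-transferase, was at 3.95, 4.45, 1.95 and 3.05 CPM in vehicle-treated mice and 71.1, 40.8, 88.7 and 126 CPM in NR-treated mice, the steepest rise of any gene that passed (4.61 ± 0.40 on the log2 scale, adjusted p = 0.00692). Its vehicle values lay within or just below those of the vehicle-treated controls (3.47 ± 1.82 CPM), and every NR value stood well above them. Of its 50-base words 89.7% also occur in transcripts of other genes, so its reads could have been split with near copies, and the same holds for Gsta2 (log2 change 1.08, 64.2% shared) next to it on chromosome 9. In all, 17 of the 72 genes shared over 10% of these words with other genes, and the same caution holds for Gstp1 (62.3%), Gm10639 (48.0%), Ces2c (42.2%), Acsf2 (37.2%), Acaa1b (35.5%), Cyp4a10 (30.5%), Gstm1 (23.1%), Tmem97 (20.8%), H2-Q10 (19.7%), Acot3 (19.5%), Acot1 (18.7%) and Ighv6-3 (14.01%), the others being given where they are described. Cbr3, a carbonyl reductase (chr16:93683219-93690991), was at 7.54, 7.43, 5.24 and 5.97 CPM on vehicle and 57.8, 43.6, 95.3 and 225 CPM on NR (log2 change 4.02 ± 0.54, adjusted p = 0.02). Its neighbour Cbr1 (chr16:93607837-93610349) went from 84.7, 176, 81.8 and 99.3 to 491, 304, 555 and 751 CPM (log2 change 2.26, adjusted p = 0.0239). For both reductases the groups did not overlap, and vehicle-treated replicate 2 was the highest vehicle value of Cbr1. Nqo1, the quinone reductase used as a reporter of NRF2 activity (chr8:107388225-107403205), was at 24.9, 33.5, 23.9 and 33.2 CPM on vehicle and 121, 76.1, 139.6 and 277 CPM on NR. Again NR-treated replicate 4 was the highest, and the log2 change was 2.42 ± 0.37 (SE, adjusted p = 0.0326). The other 6 NRF2 targets that rose were Gstm1 (1.5), the efflux pump Abcc4 (1.49), Gstp1 (1.12), Gsta2, the epoxide hydrolase Ephx1 (1.04) and transketolase Tkt (0.66). Gclc, the catalytic subunit of glutathione synthesis, did not pass, at 162, 235, 278 and 169 CPM on vehicle and 205, 202, 276 and 526 CPM on NR (adjusted p = 0.435). Only NR-treated replicate 4 stood above its vehicle range.

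Further conjugating enzymes followed. Among 18 other glutathione S-transferases 3 rose and 0 fell (7 and 0 with DESeq2, median 0.49), namely Gsta3 (1.81), the membrane-bound Mgst1 (1.37) and Gstm4 (0.84). Of 17 glucuronosyltransferases 3 rose and 0 fell (6 and 2 with DESeq2, median 0.44), namely Ugt1a6b (1.31), Ugt1a10 (1.29) and Ugt2b34 (0.97). In both lists 1 gene rose without NR-treated replicate 3 or vehicle-treated replicate 1, 3 or 4. Over all genes tested, 0.382% rose in the main fit. Members of the Ugt1a cluster share their last exons, and 80.7% of the 50-base words of Ugt1a6b and 66.2% of those of Ugt1a10 occur in other genes, so which member rose is uncertain. Of 12 targets of the xenobiotic sensors AhR, CAR and PXR only the retinaldehyde dehydrogenase Aldh1a1 rose (1.82, adjusted p = 0.0122), and the median of the list was 0.10.

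Cholesterol genes were the third group examined. Of 25 genes of cholesterol synthesis and uptake, 3 rose and 0 fell (20 and 0 with DESeq2), against 0.382% of all genes tested that rose with edgeR. Without vehicle-treated replicate 1, 3 or 4 the count of risers was 0, without vehicle-treated replicate 2 or NR-treated replicate 3 it was 1, and 10 genes rose with replicate 1 on NR left out. The log2 change was positive in 24, with a median of 0.81, and 22 had an unadjusted p under 0.05. Insig1, which holds back SREBP processing when sterol is plentiful (chr5:28071412-28078662), was at 16.1, 24.7, 18 and 19.4 CPM on vehicle and 52.5, 81.4, 123 and 118 CPM on NR (log2 change 2.27, adjusted p = 0.0131). No NR-treated mouse overlapped a vehicle-treated one, and NR-treated replicate 1 was the lowest of its group. Sqle, the squalene epoxidase, was at 48.5, 47.5, 56.8 and 40.6 CPM on vehicle and 58.5, 63.9, 109 and 87.4 CPM on NR (log2 change 0.73, adjusted p = 0.137), without overlap and without passing. Of 21 genes of fatty acid synthesis and desaturation only the desaturase Fads1 rose (0.80, adjusted p = 0.0267), with a list median of 0.31.

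**Figure D2:**
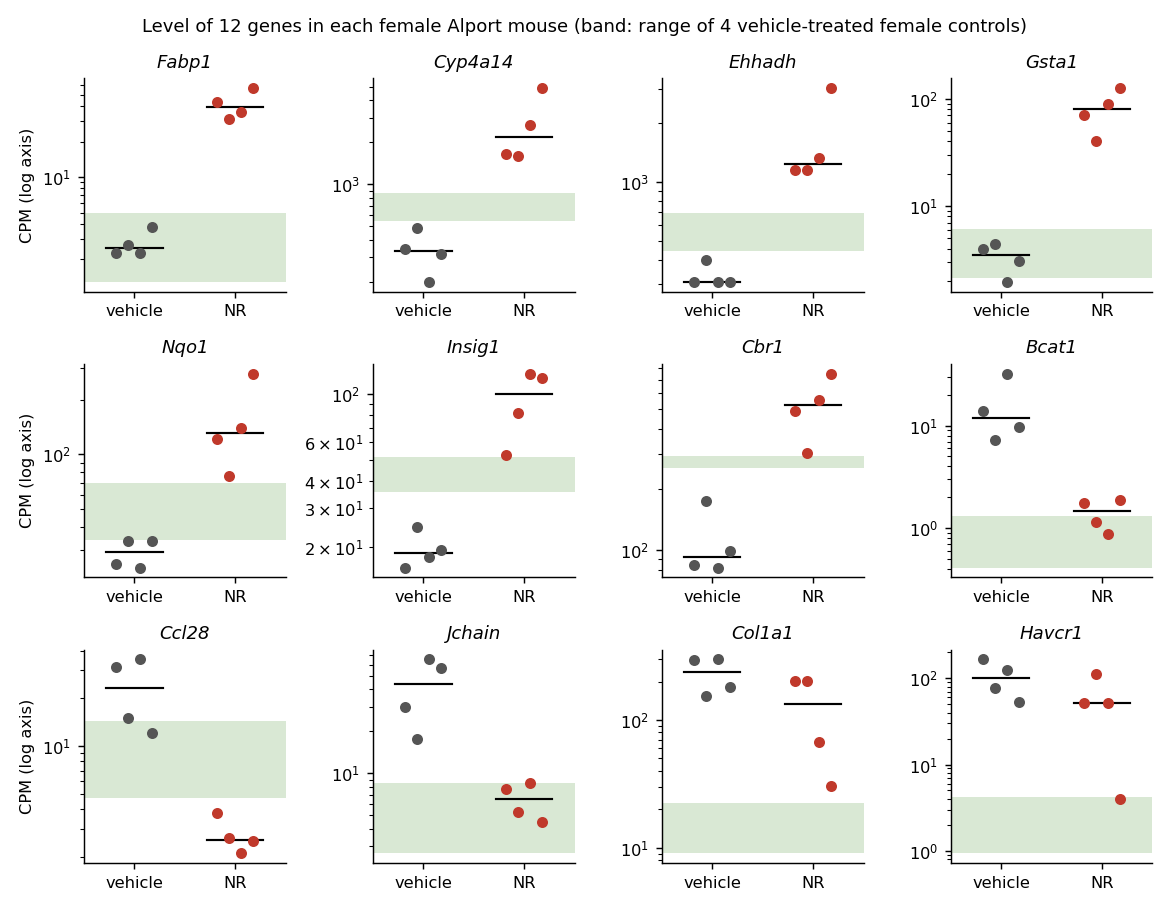
CPM on a log axis for 12 genes in each vehicle-treated (grey) and NR-treated (red) female Alport mouse, with the group median as a bar and the range of the 4 vehicle-treated female controls as a green band. Fabp1, Cyp4a14, Ehhadh, Gsta1, Nqo1, Insig1 and Cbr1 separate upward and Bcat1, Ccl28 and Jchain downward, whereas Col1a1 and Havcr1 overlap.

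The genes nearest to the supplement itself did not pass. Of 27 genes of NAD synthesis, salvage and clearance, 0 passed in either direction under edgeR, DESeq2 or limma-voom (4 higher and 1 lower at an unadjusted p under 0.05, median 0.11). Nmrk1, the kinase that phosphorylates NR on its way to NAD+, was at 59.6, 68.3, 70.4 and 66.5 CPM on vehicle and 50.6, 48.6, 57.9 and 60.3 CPM on NR. Its highest NR value lay within the vehicle range and the others below it (log2 change -0.28 ± 0.10, adjusted p = 0.213). Nampt, the rate-limiting enzyme of nicotinamide salvage, was at 106, 158, 107 and 127 and 138, 122, 188 and 235 CPM (adjusted p = 0.327). Naprt, which uses nicotinic acid, was at 38.4, 52.1, 40.8 and 42.6 and 43.4, 50.3, 48.6 and 43.5 CPM (adjusted p = 0.663). Nnmt, which methylates nicotinamide for excretion, was low at 2.34, 0.98, 2.23 and 1 and 1.62, 1.25, 0.917 and 0.3 CPM (adjusted p = 0.489). All 3 overlapped between the groups. Of 15 NAD-consuming enzymes 0 passed under edgeR and 2 fell with DESeq2 (1 higher and 2 lower at an unadjusted p under 0.05, median 0.09), although Parp8, a mono-ADP-ribosyltransferase that the list did not hold, fell by 0.79 on the log2 scale (adjusted p = 0.023).

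Genes of the respiratory chain and the citric acid cycle had small positive log2 changes. All 42 respiratory chain subunits tested had a positive log2 change, from 0.18 to 0.63 with a median of 0.36, and 26 had an unadjusted p under 0.05, but 0 passed the adjusted threshold under edgeR, DESeq2 or limma-voom (1 without NR-treated replicate 4). Likewise all 23 citric acid cycle genes were higher (0.11 to 0.61, median 0.26), with 11 at an unadjusted p under 0.05 and 0 past the threshold under edgeR (3 with DESeq2). Summed over the 42 subunits, the level was 7844, 10852, 8147 and 9713 CPM in vehicle-treated mice and 11042, 11355, 12983 and 10372 CPM in NR-treated mice, so the groups overlapped through vehicle-treated replicate 2. Of 22 genes of glycolysis and gluconeogenesis 0 passed under edgeR and 3 rose with DESeq2 (median 0.18, 5 higher and 1 lower at an unadjusted p under 0.05).

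Of the 60 risers, 22 were on none of the lists. Several of them serve lipid metabolism all the same, among them Acsf2 (0.67), an acyl-CoA synthetase, Lpcat3 (0.86), which puts polyunsaturated acyl chains into phospholipids, Ephx2 (1.02), the soluble epoxide hydrolase, the retinol saturase Retsat (1.70) and the phosphatase Plpp1 (0.57). Others were the carboxylesterase Ces2c (1.43), pirin (Pir, 1.61), Reep6 (1.44), the transferrin receptor Tfrc (1.27), Creg1 (1.24), the gap junction protein Gjb1 (0.93), monoamine oxidase Maoa (0.76), glutaredoxin Glrx (0.73), the sulfide oxidation enzyme Ethe1 (0.82) and the heme binding protein Hebp1 (0.78). Slc22a12, the urate transporter of the proximal tubule, was the only 1 of 22 proximal tubule markers to rise (1.34, adjusted p = 0.0168). Apoh rose by a log2 change of 2.16, but from a mean of only 0.209 CPM to 0.947 CPM. The remaining risers off the lists were Cox6b2 (1.17), Daam2 (0.69), H2-Q10 (1.27), Mfsd4b5 (0.98), Ptpru (1.12) and Tmem97 (0.61), and Gm10639, on the list of sex-biased genes, rose by 1.69.

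The 12 genes that fell had means over the 8 mice from 1.22 to 28.2 CPM. Bcat1, the cytosolic branched-chain aminotransferase (chr6:144993835-145076157), was at 13.9, 7.28, 32.1 and 9.71 CPM in vehicle-treated mice and 1.75, 1.16, 0.871 and 1.87 CPM in NR-treated mice. The vehicle values were spread over more than 4-fold and the NR values lay close to those of the controls (0.907 ± 0.408 CPM). Its log2 change was -3.45 ± 0.50 (SE, adjusted p = 0.0235). Ccl28, a chemokine that draws IgA-producing plasma cells to epithelia (chr13:119623819-119654359), was at 31.5, 15.1, 35.3 and 12.1 CPM on vehicle and 3.78, 2.63, 2.11 and 2.51 CPM on NR. Every NR-treated mouse was below the lowest vehicle-treated mouse and below the lowest of the 4 controls (4.71 CPM), and the log2 change was -3.08 ± 0.38 (SE, adjusted p = 0.0131). Jchain, which links IgA and IgM into polymers (chr5:88519809-88527897), was at 29.9, 17.6, 65.6 and 56.9 CPM on vehicle and 7.74, 5.3, 8.52 and 4.46 CPM on NR (log2 change -2.70, adjusted p = 0.0397). Ighv6-3, a heavy chain variable segment on chromosome 12, was at 1.89, 4.03, 2.67 and 0.697 CPM and 0.09, 0.267, 0.0917 and 0 CPM (log2 change -4.36 ± 0.75, adjusted p = 0.0404). NR-treated replicates 1, 2 and 3 held only a few of its reads and replicate 4 none, so its log2 change rests on values near the floor. Jchain and Ighv6-3 differed several fold among the vehicle-treated mice, and in neither did the groups overlap.

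A wider look at antibody genes was taken after these values were seen. Of 393 immunoglobulin genes counted, 320 stayed under 1 CPM in all 8 mice, and 19 had enough counts to be tested. A gene could enter the test through the vehicle-treated mice alone, which favours lower values with NR in each gene and in their sum. All 19, Ighv6-3 included, were lower with NR, 11 had an unadjusted p under 0.05, and Ighv6-3 alone passed. Their summed level was 232, 128, 568 and 606 CPM in the vehicle-treated mice and 70.03, 65.9, 77.3 and 29.4 CPM in the NR-treated mice, without overlap. In bulk tissue fewer plasma cells and less RNA per cell cannot be told apart.

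Among the other fallers, Col17a1, a collagen of epithelial hemidesmosomes (chr19:47646341-47692042), was at 7.64, 4.18, 6 and 4.79 CPM on vehicle and 1.35, 1.6, 1.05 and 0.262 CPM on NR (log2 change -2.41, adjusted p = 0.0474), above the controls (0.153 ± 0.139 CPM) in both groups except for NR-treated replicate 4. Wfdc16 was at 3.4, 5.58, 4.28 and 6.23 and 1.93, 1.02, 1.42 and 0.786 CPM (log2 change -1.91, adjusted p = 0.0305). Transporters of organic anions or amino acids fell without overlap. Slc22a26 was at 8.03, 7.43, 8.3 and 4.62 CPM on vehicle and 1.98, 2.58, 3.16 and 1.76 CPM on NR (log2 change -1.57, adjusted p = 0.0245). Slc22a30 was at 7.87, 9.95, 6.62 and 8.88 and 2.92, 3.74, 2.89 and 4.23 CPM (log2 change -1.26, adjusted p = 0.023), and 35.9% of its 50-base words are shared with other genes. The neutral amino acid transporter Slc6a15 was at 27, 32.2, 43.7 and 26.7 and 14.2, 15.1, 13.8 and 9.51 CPM (log2 change -1.29, adjusted p = 0.0201). Within each group the values of these 3 transporters varied by less than 2-fold. Cit, the citron kinase of cell division, was at 19.8, 18.2, 18.9 and 18.9 CPM on vehicle and 9.85, 9.97, 7.84 and 5.39 CPM on NR (log2 change -1.19, adjusted p = 0.0194), and its vehicle values lay inside the range of the controls. The zinc transporter Slc30a2 fell by 0.99 on the log2 scale (adjusted p = 0.033).

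Genes of scarring, inflammation and tubule injury were lower on the whole, but almost none passed. Of 38 extracellular matrix genes 37 had a negative log2 change (median -0.47), yet 0 passed under edgeR, DESeq2 or limma-voom. Of the 38, 3 were lower at an unadjusted p under 0.05, and in only 1 did the groups not overlap. Over all 15712 genes tested, 1170 were lower at this p and 4.05% lay below without overlap. Both counts were thus near the share over all genes. Col1a1, the main fibrillar collagen chain, was at 293, 155, 299 and 181 CPM on vehicle and 204, 200.3, 67.2 and 30.5 CPM on NR (log2 change -0.88 ± 0.55, adjusted p = 0.446). Fibronectin (Fn1) was at 204, 123, 237 and 165 and 161, 139.8, 60.5 and 32.9 CPM (adjusted p = 0.37). In both genes NR-treated replicates 3 and 4 lay below every vehicle-treated mouse, whereas replicates 1 and 2 lay inside the vehicle range. Of 28 tubule injury genes 0 passed under edgeR, while 2 rose and 4 fell with DESeq2 (3 higher and 8 lower at an unadjusted p under 0.05, median -0.30). Havcr1, the kidney injury molecule, was at 166, 77.6, 124 and 53.2 CPM on vehicle and 51.7, 113, 52.1 and 3.97 CPM on NR, where only replicate 4 reached the range of the controls (adjusted p = 0.553). Lcn2, the injury marker NGAL, was at 128, 54.6, 87.6 and 96.9 and 50.2, 66.7, 30.1 and 46.4 CPM (log2 change -0.91 ± 0.28, adjusted p = 0.189), with only NR-treated replicate 2 inside the vehicle range.

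Immune cell genes showed the same spread. All 23 macrophage and dendritic cell markers were lower (median -0.76), with 0 past the threshold under edgeR, 1 with DESeq2 and 3 at an unadjusted p under 0.05. Their summed level was 3444, 1956, 2971 and 2930.4 CPM in the vehicle-treated mice and 2739, 1767, 918 and 448 CPM in the NR-treated mice, so that only NR-treated replicates 2, 3 and 4 lay below the vehicle range and replicate 1 stood among the vehicle-treated mice. Of 19 lymphocyte markers only Jchain fell (median -0.76), and of 22 chemokines and cytokines only Ccl28 (median -0.67). Interferon-stimulated genes separated better. All 19 were lower (median -0.67), 14 had an unadjusted p under 0.05 and in 10 the groups did not overlap. Of all genes tested, 4.05% lay below without overlap. None of the 19 passed under edgeR (7 with DESeq2, 2 with limma-voom, 6 in the absence of replicate 1 on NR and 2 in that of replicate 4). Gbp3 (log2 change -1.34, adjusted p = 0.0548) and Irf7 (-1.13, adjusted p = 0.0561) were just outside the threshold. The complement genes (14, median -0.46, 5 lower at an unadjusted p under 0.05), the cell cycle genes (22, median -0.58, 8 lower) and the basement membrane genes (16, median -0.17, 3 lower) had 0 past the threshold under edgeR, against 4, 1 and 2 that fell with DESeq2. Likewise 0 of 16 genes of the TGF-beta pathway (median -0.16, 1 lower at an unadjusted p under 0.05), 0 of 15 immediate early and heat shock genes (median -0.03, 0 at an unadjusted p under 0.05) and 0 of 17 genes of serine synthesis and ATF4 (median 0.08, 5 higher and 2 lower) passed under edgeR, against 0, 0 and 3 with DESeq2. The myofibroblast list, at a median of -0.10 with 0 of 12 genes past the threshold under edgeR or DESeq2 and 1 at an unadjusted p under 0.05, was close to the median of all genes.

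**Figure D3:**
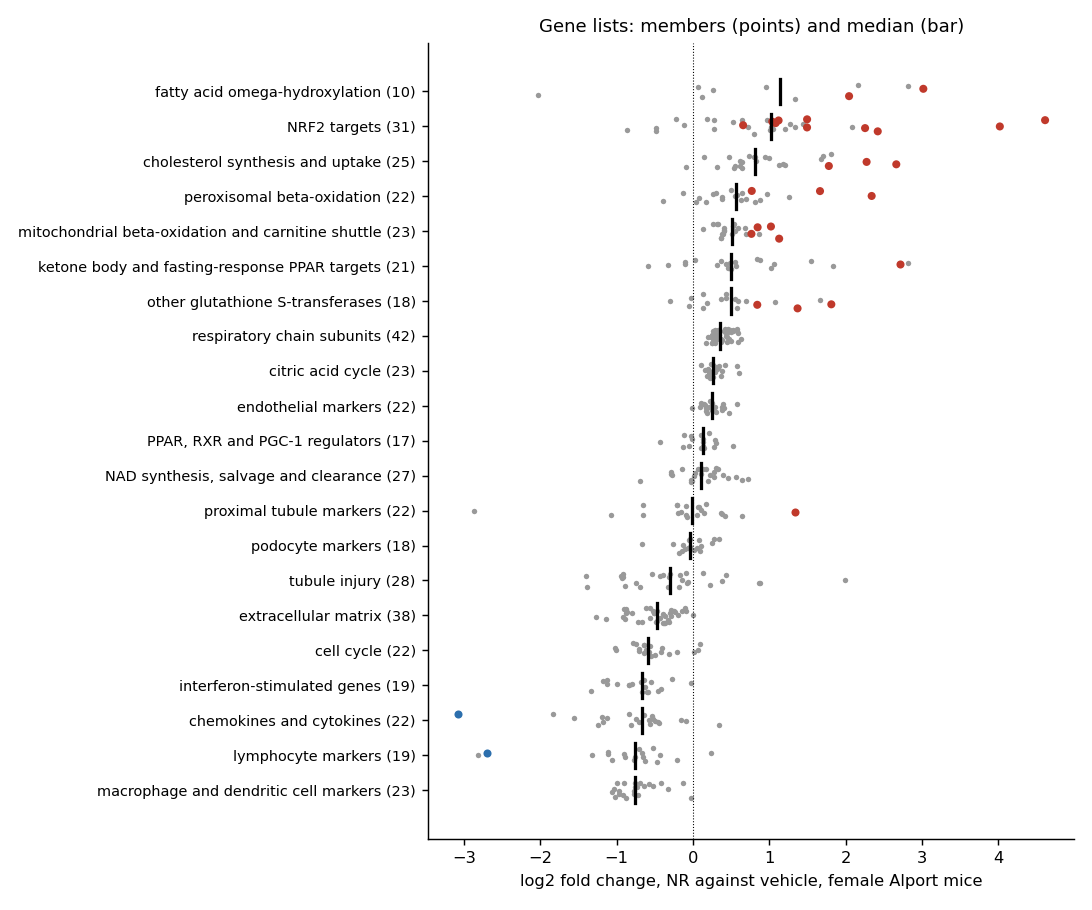
Log2 fold change with NR of the tested members of 21 gene lists in female Alport mice, with the number tested in brackets, list medians as black bars, and members past the threshold in red (higher) or blue (lower). Medians run from 1.14 for fatty acid omega-hydroxylation to -0.76 for lymphocyte and macrophage markers, and members past the threshold lie in the metabolic lists on the right apart from Slc22a12, Ccl28 and Jchain.

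Lists of kidney cell type markers had small median changes. The median log2 change was -0.01 over 22 proximal tubule markers, -0.04 over 18 podocyte markers, 0.24 over 22 markers of the loop of Henle and later segments, and 0.25 over 22 endothelial markers. Of the endothelial markers 21 were higher, 10 at an unadjusted p under 0.05, and 0 passed under edgeR. In 6 of them the NR-treated mice lay above without overlap, against 5.14% of all genes tested. Their summed level was 984 to 1098 CPM on vehicle and 1210 to 1422 CPM on NR. The androgen-dependent proximal tubule gene Kap was lower in every NR-treated mouse than in any vehicle-treated mouse, at 7.01 to 143 CPM against 224 to 752 CPM, but did not pass (adjusted p = 0.183). Of 7 blood cell markers 5 were higher at an unadjusted p under 0.05, led by the globin gene Hba-a2 (log2 change 1.67, adjusted p = 0.146), and the list median was 1.55. None of the 7 passed under edgeR and 4 did with DESeq2. Summed, they were at 153, 419.9, 187 and 205 CPM in vehicle-treated mice and 768, 1277, 475 and 426 CPM in NR-treated mice. In female controls, where NR raised 4.00% of all genes, 5 of 6 blood cell markers tested rose past the threshold (median 1.41). In male Alport mice 0 of 8 passed under edgeR (median 0.57). The part of residual blood in these and other results was not tested. Adipocyte markers (7 tested, median 0.32) and hepatocyte or adrenal markers (7 tested, median -0.23) had 0 past the threshold under edgeR (1 and 0 with DESeq2, 2 and 0 at an unadjusted p under 0.05), and albumin (Alb), the defining hepatocyte gene, was at a mean of 7.67 CPM on vehicle and 5.55 CPM on NR.

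The levels of the risers differed among the 4 NR-treated mice. Each mouse was measured once, so a response per mouse was not observed. Across the 60 risers, replicate 4 was the highest of the NR-treated mice for 45 genes and replicate 2 the lowest for 34. The median of the risers, taken as log2 over the mean of the vehicle-treated mice, was 1.09 in NR-treated replicate 1, 0.991 in replicate 2, 1.30 in replicate 3 and 1.47 in replicate 4. Vehicle-treated replicate 2 was the highest of its own group for 41 of the 60, with a median of 0.179, and vehicle-treated replicate 3 the lowest for 34. Among the 12 fallers, NR-treated replicate 4 was the lowest for 8. NR-treated replicate 4, the highest for most of the risers, also had the lowest levels of Col1a1, Fn1 and Havcr1 and the lowest macrophage sum. Lcn2, by contrast, was lowest in NR-treated replicate 3. Vehicle-treated replicate 2 had the lowest macrophage sum of its group. For 45 of the 60 risers all 4 NR-treated Alport mice lay above all 4 vehicle-treated female controls, for 14 they overlapped them and for 1 they lay below. Of all genes tested, 1851 (11.8%) lay above the controls in this way and 2226 (14.2%) below. For 7 of the 12 fallers the NR-treated mice lay below the controls, and for 5 they overlapped. Risers and fallers were picked by their values in these same NR-treated mice, which favours such separation. The share over all genes tested is therefore not a like comparison.

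**Figure D4:**
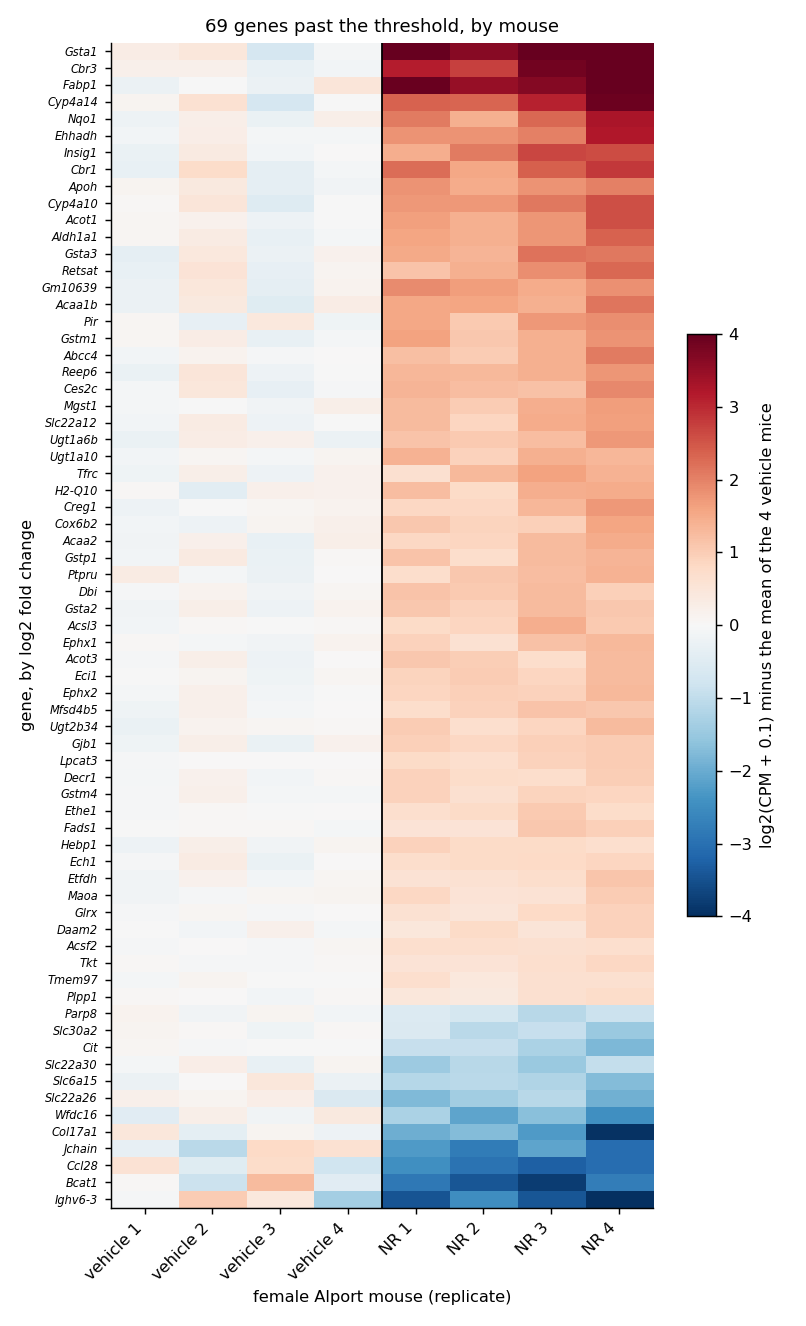
Level of 69 of the 72 genes past the threshold in each of the 8 female Alport mice, as log2(CPM + 0.1) minus the mean of the 4 vehicle-treated mice, with genes ordered by log2 fold change. NR-treated replicate 4 has the deepest red for most of the risers shown, and vehicle-treated replicate 2 is the reddest of its group.

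The same 72 genes were then examined in mice that had no part in choosing them. In female controls, where NR raised 598 of 14951 genes (4.00%) and lowered 358 (2.39%), 59 of the 60 risers were tested, 58 had the same direction and 44 rose past the threshold. Their median log2 change was 0.785 in controls, against 1.24 for the same 59 genes in Alport mice. These genes were chosen by their change in the Alport mice, which raises the median there. The 2 medians therefore do not compare the size of the NR effect between genotypes. Gsta1 rose by 3.88 in controls (adjusted p = 0.0415), Fabp1 by 3.40 (adjusted p = 0.0477), and Cyp4a14 by 1.72 (adjusted p = 0.02). Ehhadh at 1.28 (adjusted p = 0.0731) did not pass there. Of 10 fallers tested in controls 8 had the same direction and 2 fell past the threshold, Cit (-0.96, adjusted p = 0.00209) and Slc22a30 (-0.98, adjusted p = 0.00369). Bcat1, by contrast, had a log2 change of 0.78 in controls. Of the 25 cholesterol genes 22 rose in controls, and of the 42 respiratory chain subunits 27 did.

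In male Alport mice 0 genes passed under edgeR, with 417 of 15500 genes higher (2.69%) and 360 lower (2.32%) at an unadjusted p under 0.05, and 62 genes passed with DESeq2. All 60 risers were tested there, and 59 had the same direction, 47 of them at an unadjusted p under 0.05, with a median log2 change of 0.884. Gsta1 had a log2 change of 5.68 in males, Cyp4a14 of 5.19 and Fabp1 of 3.19, each at an unadjusted p under 0.05. Of 11 fallers tested in males 10 had the same direction and 5 had an unadjusted p under 0.05.

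Whether the effect of NR differed between the groups was tested directly. For the interaction of NR with sex in Alport mice 0 genes passed under edgeR, 361 had an unadjusted p under 0.05, and 1 passed with DESeq2. The smallest p belonged to Ugt1a2, where the female minus male difference of log2 changes was -3.31 (adjusted p = 0.751). Its mean was 806 CPM on vehicle and 890 CPM on NR in females, against 25.3 and 275 CPM in males. Ugt1a1 (-1.71), Dnaic2 (-3.49), Apoh (2.40) and Top3a (-0.55) followed. For the interaction with genotype in females 0 genes passed under edgeR, 1484 had an unadjusted p under 0.05, and 30 passed with DESeq2. Acot3 (Alport minus control difference 0.94, adjusted p = 0.0714) and Bcat1 (-4.26, adjusted p = 0.0722) came nearest. Acot3 rose in Alport mice from a mean of 35.1 to 70.9 CPM, whereas it was at 92.1 CPM on vehicle and 96.7 CPM on NR in controls. Steap4 (-2.12), Rgs4 (-1.15) and the retinoic acid hydroxylase Cyp26b1 (4.22) followed. Cyp26b1 was at a mean of 11.2 CPM on vehicle and 62.7 CPM on NR in Alport mice, and at 39.6 and 11.99 CPM in controls.

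**Figure D5:**
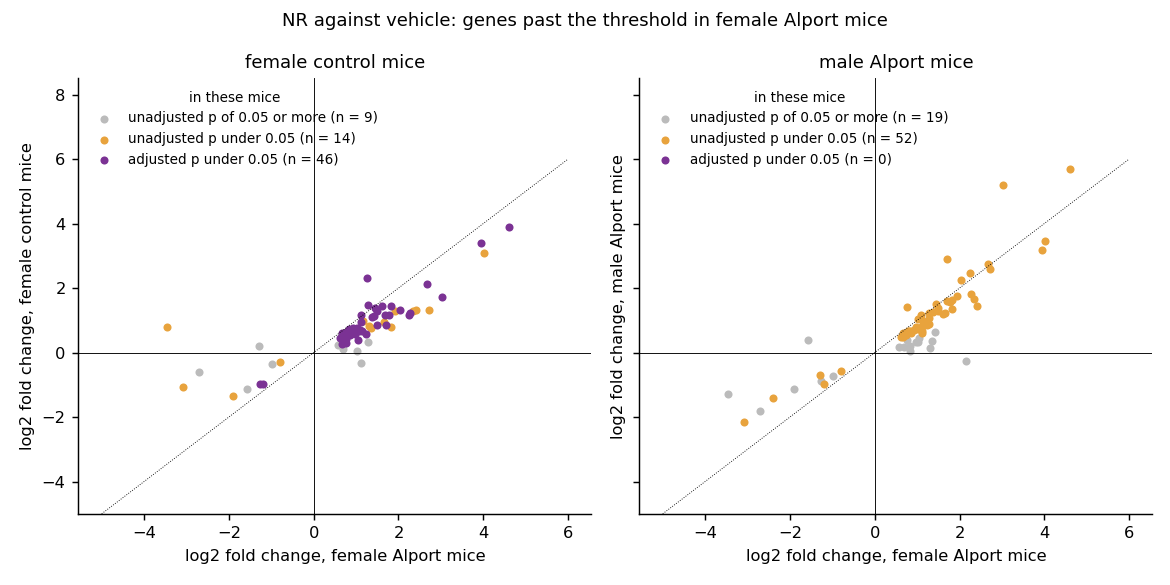
Log2 fold change with NR of the 72 genes in female Alport mice (horizontal axis) against female control mice (left, 69 genes tested) and male Alport mice (right, 71 genes tested), with the dotted line marking equal change. Purple points pass the adjusted threshold in the mice on the vertical axis (46 and 0 genes), and nearly all risers lie above 0 in both panels.

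Values of the disease itself are set beside those of NR with the caution that both comparisons use the 4 vehicle-treated Alport mice, so a high or low value in these mice enters each with opposite sign. On vehicle, 3419 of 15709 genes were lower (21.8%) and 3760 higher (23.9%) in female Alport mice than in female controls. Of the 60 risers 59 were tested there, of which 33 were lower in Alport mice and 1 was higher. The log2 difference, Alport minus control, was -0.84 for Ehhadh, -0.98 for Cyp4a14, -1.06 for Insig1 and -1.31 for Cbr1, whereas Fabp1 (-0.05) and Gsta1 (-0.02) had values near 0. Of the 12 fallers 7 were higher in Alport mice, among them Col17a1 (5.19), Bcat1 (4.13) and Jchain (3.25). The injury and matrix genes stood far above the controls, with log2 changes of 5.74 for Havcr1, 5.21 for Lcn2 and 3.97 for Col1a1.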

How the data were processed

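Kidney cortex RNA was extracted on spin columns, selected for poly(A) and sequenced by a service laboratory. The authors processed the reads with BioJupies and deposited raw read counts per gene symbol, on genome build mm10 per the labels. The aligner, annotation and strand setting are not given in the sources used here. The deposited log table of the same counts was not used.

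Counts of the 8 mice were filtered with filterByExpr (minimum count 10), scaled by TMM and fitted in edgeR 4.0.16 (R 4.3.3) with robust quasi-likelihood dispersions, the test being glmQLFTest with Benjamini-Hochberg adjustment over all genes. The control and male comparisons were fitted likewise, as were the interactions of NR with sex and with genotype, which were chosen here and not by the study. DESeq2 1.42.0 and limma 3.58.1 were alternatives, and the scripts were checked on simulated data. CPM per mouse use TMM factors over all 32 mice, and log2 changes come from the fit. Each p-value sets the difference between groups against the spread between mice, estimated in part across genes, with 4 mice a group. Replicate numbers were not treated as pairs in the main fits.

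The comparison, the 38 gene lists and the tests were chosen with earlier results of these data known. Named genes were all those past the threshold, the 10 largest changes in each direction with a value in every mouse, the members past the threshold in each list or, where fewer than 2 passed, the 2 with the smallest p, a set of 27 always given, and the 5 smallest p of each interaction. The values of 5 of them, 3 past the threshold, are not reported here, though they count in every total. Shared 50-base words were counted against GENCODE transcripts, and promoters came from RefSeq.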

Additional observations from a re-analysis of the deposited data

Results flagged for a closer look

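The values of 37 genes were examined for a mouse that stood apart from the other 3 of its group by Dixon's test, which flags about 1 group in 20 by chance, and 5 of 74 groups met it. NR-treated replicate 4 stood above its group in Ehhadh (3018 CPM) and Pdk4 (429 CPM), where the next highest mouse was at 1321 and 82.2 CPM. Vehicle-treated replicate 2 stood above its group in Ehhadh (396 CPM), Acadm (537 CPM) and Col4a3 (79.2 CPM), where the next highest was at 308, 317 and 60.1 CPM. Without NR-treated replicate 4 the log2 change of Ehhadh was 1.88 and without vehicle-treated replicate 2 it was 2.45, and without the latter Acadm passed the threshold at a log2 change of 0.68. No interaction of NR with sex or genotype passed the threshold under edgeR.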

How the results depend on the processing

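The number of genes changed by NR in female Alport mice was 72 (60 higher and 12 lower). It was 728 (443 and 285) with DESeq2, 240 (166 and 74) in a fit of all 32 mice and 788 (522 and 266) in a fit of the 16 female mice, and 21 genes were lower with no low-count filter. Leaving out 1 mouse gave 9 to 163 genes, with 9 to 92 higher and 0 to 72 lower (24 in the absence of replicate 3 on NR, 113 and 163 in that of replicates 4 and 1 on NR, and 9, 14 and 10 in that of replicates 1, 3 and 4 on vehicle). Limma-voom, RLE scaling, a filter on CPM, a 2-fold minimum and dispersions without robust weights, the last added after the data were seen, stayed within 1.5 times of 72, and 9 of the 72 genes passed in every leave-out fit. With the replicate number as a block, 54 genes passed, 39 of them among the 72. The correlations of same-numbered mice were 0.050, -0.167, -0.030 and -0.073, within the range of differently numbered mice (-0.243 to 0.178). They gave no sign of pairing by number, but they cannot exclude a weak one. With DESeq2 1 gene passed for the interaction with sex, 30 for that with genotype and 62 for NR in males, against 0 for each with edgeR, and leaving out 1 mouse gave 0 to 0, 0 to 33 and 0 to 374. In female controls 956 genes (598 higher and 358 lower) became 1493 (906 and 587) with DESeq2, 406 (242 and 164) with the replicate block and 422 to 857 (282 to 534 higher and 130 to 323 lower) with 1 mouse left out, and the Alport count on vehicle stayed within 1.5 times of 7179 throughout. The log2 change of Ppara turned negative without NR-treated replicate 4, at -0.17, over a leave-out range of -0.17 to 0.28. The causes were not tested. With 4 mice a group, genes whose NR-treated mice differ among themselves, such as Pdk4 and Havcr1, are those least resolved.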

Other observations

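Of 17 genes tested that differ between male and female kidney, Gm10639 rose and Slc22a30 fell with edgeR. The median log2 change was -0.65, with 5 genes higher and 12 lower. In 5 genes every NR-treated female Alport mouse lay below every vehicle-treated one, and in 1 above. Over all genes tested these shares were 4.05% and 5.14%. Beside Slc22a30, Cyp2j13 had a log2 change of -1.99 (adjusted p = 0.0824), Kap of -2.87 (adjusted p = 0.183), Slco1a1 of -1.87 (adjusted p = 0.151) and Slc7a12 of -1.81 (adjusted p = 0.197), and none of these 4 passed. Ugt2b35 had the largest positive log2 change of all genes tested, 4.74, but did not pass (adjusted p = 0.124). These genes were chosen for mention after their values were seen.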
